A study of Homo sapiens with 17 samples.

Results

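Aminoacyl-tRNA synthetases are the enzymes that attach each amino acid to its tRNA, and their mRNAs were followed through an experiment on ribosome association. The members were chosen by name alone, with no measured value: protein-coding genes whose symbol is a 1-letter amino acid code joined to ARS and a number, together with EPRS1, FARSA and FARSB. The rule found 38 genes among the 13473 protein-coding genes and 18869 genes of all kinds in the deposited table. By the ending of the symbol, 21 encode cytosolic enzymes and 17, all ending in 2, encode mitochondrial enzymes.

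The study used HEK293T, a human embryonic kidney line, to ask how the ribosome association of an RNA relates to which poly(A)-binding protein it is recovered with. Cells expressed RPS2-STAMP, the small-subunit ribosomal protein RPS2 fused to the cytidine deaminase APOBEC1, or Control-STAMP, APOBEC1 alone, after 24 h in 50 ng/ml doxycycline, and were fixed in 0.1% formaldehyde. Each lysate was divided for immunoprecipitation (IP) of the nuclear poly(A)-binding protein PABPN or the cytoplasmic PABPC, with a portion kept as Input. The 17 samples were 9 RPS2-STAMP samples, 3 for each fraction, and 8 Control-STAMP samples, of which 3 were Input, 3 PABPN IP and 2 PABPC IP. The constructs were carried by separate stable lines, made from HEK293T by lentiviral integration and given the same induction and fixation. Construct and derived line therefore cannot be told apart. The methods describe the lysate as cytoplasmic, which the sample labels do not mention.

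A cell needs a synthetase for every amino acid, since the ribosome reads the tRNA and does not check what the tRNA carries. Human cells keep largely separate sets for the cytosol and for mitochondria, but all of these enzymes are encoded in the nucleus and made on cytosolic ribosomes, and the mitochondrial ones are imported afterwards. In the cytosol a group of synthetases is held with scaffold proteins in the multi-tRNA synthetase complex. The others are called free here, which means only that they lie outside that complex.

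The deposited table holds 1 normalized EPKM value for each gene in each fraction. EPKM counts C-to-U edits relative to transcript length and library size, and the authors subtracted the editing of the control condition. No value in the table is below 0, but the sources do not say what was done with negative differences or in what way the replicates were pooled. A 0 can stand for no edits or for edits no more frequent than in the control, and the table does not tell these apart. The table also gives an average TPM for each gene and fraction, the sum of an exonic and an intronic TPM, and does not state which samples entered each average. No read or edit counts are given, and the coverage and number of edits behind each gene's value are unknown, so the values carry no error and differences could not be compared with the spread between replicates. The cells were a bulk culture, in which fewer expressing cells and less RNA per cell cannot be told apart.

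Of the 38 genes, 37 averaged 5 TPM or more in each IP, the filter the study applied. These were 21 cytosolic and 16 mitochondrial genes. Counts and medians were taken over them, except that the EPKM pairs also include MARS2 and gene structure covers all 38 genes. MARS2, which encodes the mitochondrial methionyl enzyme from a single exon, has an EPKM but no TPM in the table. Its normalized EPKM was 0.00916 in the Input and 0.0693 in PABPC IPs, and it was listed at 0 in PABPN IPs. The 9607 protein-coding genes (PCGs) that pass the same filter serve as the background. As a check of the cell line, the markers VIM, NEFM and PAX2 were all listed, with an Input TPM of 184 for VIM, 9.0 for NEFM and 0.797 for PAX2. The markers of leukocytes, liver cells and endothelium, PTPRC, ALB and PECAM1, had no entry in the table.

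Synthetase genes are long in coding sequence and split into many exons. In GENCODE 44 on hg38 the members' canonical transcripts had a median of 16.5 exons, against 9 for background PCGs, and a median coding length of 1785 bases, against 1320. Their transcripts as a whole were not longer, with a median of 2732 bases against 3270. APOBEC1 prefers cytidines that follow A or U, and such cytidines made up a median of 10.7% of the members' transcript bases, with a lowest value of 9.28% and a highest of 12.2%. The background median was 10.6%, so the synthetases offer about the same density of this context as other genes.

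Most synthetase mRNAs had a normalized EPKM above 0 in each fraction, as had most background PCGs. Normalized EPKM was above 0 for 29 of the 37 members in the Input, where the share of background PCGs was 78.1%. In PABPC IPs it was above 0 for 32 members, against 82.6% of background PCGs, and in PABPN IPs for 31 members, or 83.8%, against 72.9%. Above 0 in all 3 fractions were 22 members, 16 cytosolic and 6 mitochondrial, which is 59.5% of members beside 50.5% of background PCGs. No member that passed the filter was at 0 throughout, as 199 background PCGs were, or 2.07%, a share too small to set 37 members apart. The members' share above 0 was thus near the background's in the Input and the PABPC IP and above it in PABPN IPs. There 19 of 21 cytosolic members were above 0, or 90.5%, while the mitochondrial members, 12 of 16 or 75%, were near the background. Above 0 in all 3 were 76.2% of cytosolic and 37.5% of mitochondrial genes, a difference that was not tested. Median TPM in PABPN IPs was 88.3 for cytosolic members, 39.1 for mitochondrial members and 38.4 for background PCGs. Whether mRNA level bears on these shares was not tested either.

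**Figure D1:**
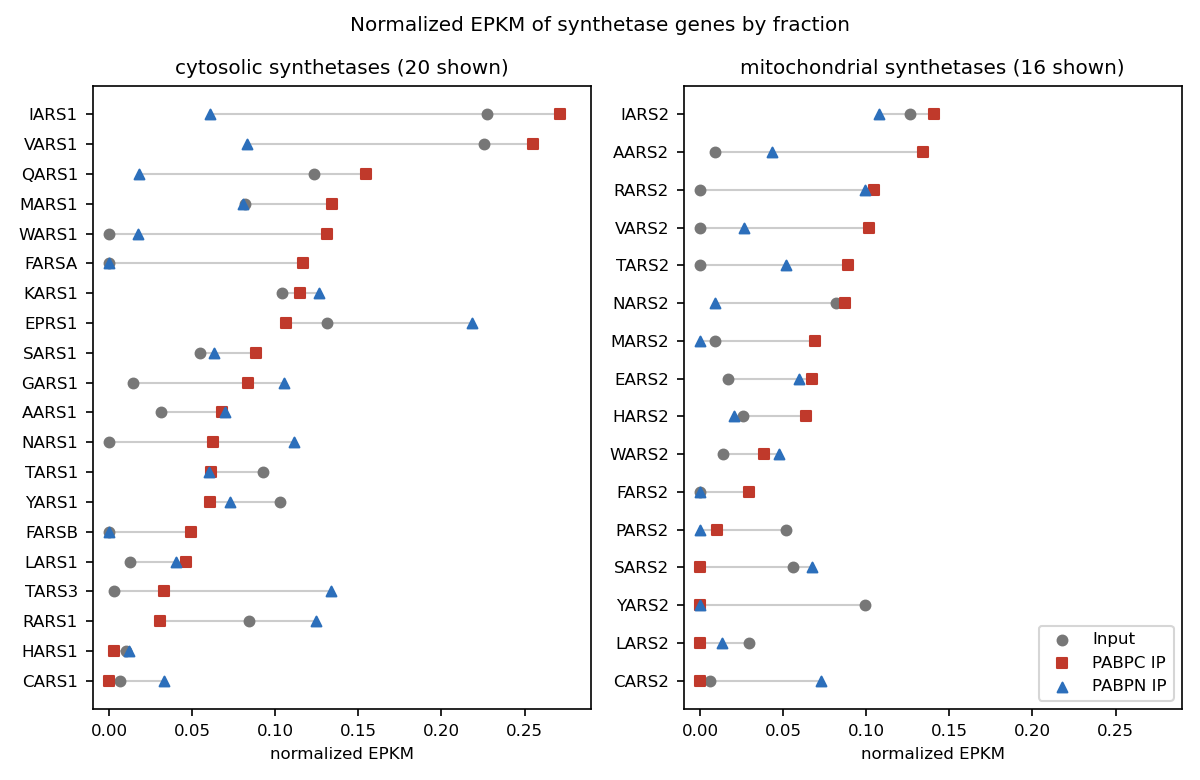
Normalized EPKM (x axis) of the synthetase genes shown (y axis) in the Input (circles), PABPC IP (squares) and PABPN IP (triangles), with cytosolic genes on the left and mitochondrial genes on the right, ordered by the PABPC IP value and joined by a grey line from the lowest to the highest fraction. IARS1 and VARS1 reached 0.272 and 0.255 in PABPC IPs, while the highest mitochondrial gene there, IARS2, reached 0.141.

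The median normalized EPKM of cytosolic members in the Input was 0.0548 and that of mitochondrial members 0.0213, beside 0.0273 for background PCGs. The PABPC IP medians were 0.0681, 0.0582 and 0.0501 in the same order. In PABPN IPs they were 0.0630, 0.0348 and 0.0334. The cytosolic median was the higher by 0.0335 in the Input, by 0.00986 in PABPC IPs and by 0.0282 in PABPN IPs, but among the 12 cytosolic and 15 mitochondrial genes whose Input TPM lay in the range both groups share the Input difference turned to -0.0144. The 9 cytosolic genes outside that range had a higher Input TPM than any mitochondrial gene. The PABPC IP difference was 0.0318 between means and from 0.00384 to 0.00469 under the other alternatives, so its size depends on the summary and the genes included. Split by catalytic fold, class I and class II members had Input medians of 0.0291 and 0.0258, PABPC IP medians of 0.0670 and 0.0627, and PABPN IP medians of 0.0595 and 0.0434. Set against mRNA level, their Input medians were 0.133 and 0.0648 EPKM per 100 TPM. In PABPC IPs they were nearly level on that scale, at 0.117 and 0.114, and in PABPN IPs they were 0.0850 and 0.0610.

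All 8 synthetases of the multi-tRNA synthetase complex had a normalized EPKM above 0 in all 3 fractions, as had 8 of the 13 free cytosolic enzymes, or 61.5%, beside 50.5% of background PCGs. The median for the complex was 0.0941 in the Input, 0.111 in PABPC IPs and 0.0704 in PABPN IPs. For the free enzymes the medians were 0.0102, 0.0627 and 0.0630. The complex was thus higher by 0.0839 in the Input, by 0.0480 in PABPC IPs and by 0.00746 in PABPN IPs. Differences of means were 0.0298 in PABPC IPs and 0.0291 in PABPN IPs, so the size of the gap in the IPs depends on the summary. The Input TPM medians were 63.4 for the complex and 52.5 for the free enzymes. Per 100 TPM the Input EPKM medians were 0.180 and 0.0593.

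Within the complex IARS1, the isoleucyl enzyme, had the highest normalized EPKM of all 38 members in the Input, 0.227, and in PABPC IPs, 0.272. Its PABPN IP value was 0.0604, which put the gene among those edited chiefly in the Input and the PABPC IP. EPRS1, which joins the glutamyl and prolyl enzymes in 1 protein, showed the opposite order, with 0.131 in the Input, 0.107 in PABPC IPs and 0.218 in PABPN IPs, the highest PABPN IP value of any member. To show the sequence context that APOBEC1 prefers, the first 90 coding bases follow for IARS1, EPRS1, VARS1 and FARSA. VARS1, the valyl enzyme, lies outside the complex and was the next highest after IARS1 in PABPC IPs. FARSA was at 0 in the fractions other than the PABPC IP. Capitals mark cytidines after A or T. IARS1 lies at chr9:92210207-92293854 on the minus strand, EPRS1 at chr1:219968600-220046530 on the minus strand, VARS1 at chr6:31777518-31795752 on the minus strand and FARSA at chr19:12922479-12934037 on the minus strand of hg38, and the sequences are given 5′ to 3′ along the mRNA.
IARS1: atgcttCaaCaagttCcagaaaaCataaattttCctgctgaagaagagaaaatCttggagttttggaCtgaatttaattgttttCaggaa
EPRS1: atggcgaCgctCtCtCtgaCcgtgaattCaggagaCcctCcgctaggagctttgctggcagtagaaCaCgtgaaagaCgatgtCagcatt
VARS1: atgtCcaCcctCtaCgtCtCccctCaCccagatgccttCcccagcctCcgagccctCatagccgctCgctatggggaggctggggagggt
FARSA: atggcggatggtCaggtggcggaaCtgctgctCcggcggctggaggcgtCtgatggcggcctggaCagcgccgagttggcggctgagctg
These stretches hold 8 marked cytidines in IARS1, 12 in EPRS1, 12 in VARS1 and 5 in FARSA. Positions of edits are not given, so whether any of these cytidines was edited is unknown. Over the whole transcript the share of such cytidines was 11.5% in IARS1, 10.3% in EPRS1, 10.6% in VARS1 and 10.9% in FARSA.

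The other members of the complex differed in which fraction was highest. QARS1, the glutaminyl enzyme, was at 0.123 in the Input, 0.154 in PABPC IPs and 0.0181 in PABPN IPs. MARS1, which charges methionine to initiator and elongator tRNAs, was at 0.0819, 0.134 and 0.0804 in the same order. Both were thus highest in PABPC IPs. KARS1, the lysyl enzyme, was nearly level at 0.104, 0.115 and 0.126. RARS1, the arginyl enzyme, was lowest in PABPC IPs, with 0.0842 in the Input, 0.0304 in PABPC IPs and 0.124 in PABPN IPs. LARS1, the leucyl enzyme, which also senses leucine for growth signalling, had the lowest TPM of the complex and the lowest Input EPKM in it, 0.0125, with 0.0462 in PABPC IPs and 0.0402 in PABPN IPs.

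**Figure D2:**
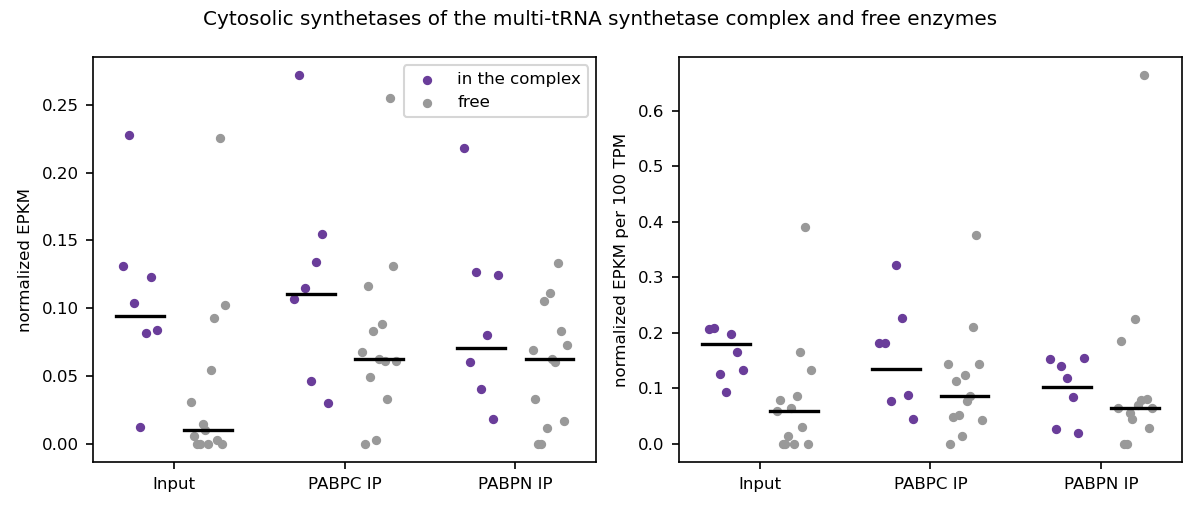
Normalized EPKM (left) and normalized EPKM per 100 TPM (right) of the 8 cytosolic synthetases in the multi-tRNA synthetase complex (purple) and the 13 free ones (grey) in each fraction, 1 point per gene shown, with black lines at the medians of all 8 and all 13. The Input medians were 0.0941 for the complex and 0.0102 for the free enzymes, and the PABPN IP medians 0.0704 and 0.0630, while the means in PABPN IPs differed by 0.0291.

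Scaffold proteins of the complex, which hold the enzymes together and catalyse nothing themselves, were not alike. AIMP2 was at a normalized EPKM of 0.0979 in the Input and 0.329 in PABPC IPs, the latter above every synthetase, and was listed at 0 in PABPN IPs. AIMP1 was at 0.0195 in the Input and 0.00637 in PABPN IPs and at 0 in PABPC IPs. EEF1E1 was at 0.167, 0.116 and 0.199 in the Input, PABPC IP and PABPN IP.

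Among the free enzymes, VARS1 followed the pattern of IARS1, with a normalized EPKM of 0.225 in the Input, 0.255 in PABPC IPs and 0.0830 in PABPN IPs. The subunits of the phenylalanyl enzyme were the only cytosolic members above 0 in a single fraction. FARSA, the catalytic subunit, was at 0.117 in PABPC IPs and at 0 in the others, and its TPM was 155 in the Input, 241 in PABPC IPs and 155 in PABPN IPs. FARSB, its partner subunit, was at 0.0490 in PABPC IPs and at 0 in the others, with TPM of 43.0 in PABPC IPs and 41.6 in PABPN IPs. FARSA had the highest Input TPM of all members. WARS1, the tryptophanyl enzyme, which is also secreted during infection, was likewise at 0 in the Input, with 0.131 in PABPC IPs and 0.0172 in PABPN IPs.

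A second set of free enzymes was highest in PABPN IPs. NARS1, the asparaginyl enzyme, was at 0 in the Input, 0.0627 in PABPC IPs and 0.111 in PABPN IPs. AARS1, the alanyl enzyme, was at 0.0312, 0.0681 and 0.0695 in the same order. Its values in the IPs were nearly level. CARS1, the cysteinyl enzyme, was at 0.00622 in the Input, 0 in PABPC IPs and 0.0330 in PABPN IPs. HARS1, the histidyl enzyme and a target of autoantibodies in myositis, stayed low throughout, at 0.0102, 0.00289 and 0.0117. SARS1, the seryl enzyme, which also charges the tRNA for selenocysteine, was highest in PABPC IPs, at 0.0548 in the Input, 0.0881 in PABPC IPs and 0.0630 in PABPN IPs. YARS1, the tyrosyl enzyme, was highest in the Input, at 0.103, 0.0608 and 0.0730.

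Threonine is served by 2 cytosolic genes, and they differed. TARS1 was at a normalized EPKM of 0.0925 in the Input, 0.0615 in PABPC IPs and 0.0601 in PABPN IPs. TARS3, its close relative, was at 0.00290, 0.0331 and 0.134, from a TPM of 9.48 in the Input against 55.9 for TARS1. Reads of the pair can be told apart only where their sequences differ, and the longest stretch of coding sequence they share without a mismatch is shown for that reason, with the shared run in capitals and 15 bases on each side. TARS1 lies at chr5:33440696-33468091 on the plus strand and TARS3 at chr15:101653596-101724473 on the minus strand of hg38.
TARS1: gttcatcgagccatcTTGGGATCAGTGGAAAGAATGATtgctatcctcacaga
TARS3: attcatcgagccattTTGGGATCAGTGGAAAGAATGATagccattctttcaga
The run is 23 bases long, shorter than the 100-base reads.

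GARS1, the glycyl enzyme, and KARS1 have no separate mitochondrial gene, and each serves both compartments. GARS1 does so from 1 mRNA with alternative start codons, and its coding start is printed because a single EPKM value covers both products. Capitals mark the in-frame ATG codons, the second of which is codon 55, in the gene at chr7:30580533-30634033 on the plus strand of hg38.
GARS1: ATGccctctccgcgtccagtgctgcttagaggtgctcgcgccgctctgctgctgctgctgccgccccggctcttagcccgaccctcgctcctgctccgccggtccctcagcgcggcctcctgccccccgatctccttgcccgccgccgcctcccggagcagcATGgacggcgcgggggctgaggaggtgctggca
KARS1 instead uses alternative splicing near its start, so the 2 products have mRNAs of their own that differ over a short stretch. Capitals mark the bases that each transcript has to itself, in the gene at chr16:75627474-75648643 on the minus strand of hg38, where the first transcript encodes the cytosolic enzyme and the other the mitochondrial one.
KARS1 cytosolic: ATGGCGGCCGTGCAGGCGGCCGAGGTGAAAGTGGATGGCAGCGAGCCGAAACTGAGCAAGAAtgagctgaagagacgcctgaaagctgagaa
KARS1 mitochondrial: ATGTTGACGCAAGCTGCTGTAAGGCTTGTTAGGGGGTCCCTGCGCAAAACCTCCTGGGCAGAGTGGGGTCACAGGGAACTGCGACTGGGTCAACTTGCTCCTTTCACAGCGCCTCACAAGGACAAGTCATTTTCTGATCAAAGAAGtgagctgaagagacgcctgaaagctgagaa
After 62 and 146 bases of their own the transcripts share 1729 coding bases, and the table gives 1 value for the gene. The normalized EPKM of GARS1 was 0.0145 in the Input, 0.0834 in PABPC IPs and 0.105 in PABPN IPs, and its TPM was 104, 159 and 186. Both genes were highest in PABPN IPs. In EPKM per 100 TPM, GARS1 was the lower at 0.0140 in the Input against 0.125 for KARS1.

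Mitochondrial synthetases have no complex, and their enzymes charge tRNAs transcribed from mitochondrial DNA. IARS2, the isoleucyl enzyme, was the most highly edited in all 3 fractions, with a normalized EPKM of 0.126 in the Input, 0.141 in PABPC IPs and 0.107 in PABPN IPs. It was also the most abundant of them, with TPM of 57.8, 121 and 125. AARS2, the alanyl enzyme, was next in PABPC IPs, at 0.00917 in the Input, 0.134 in PABPC IPs and 0.0434 in PABPN IPs. RARS2, the arginyl enzyme, VARS2, the valyl enzyme, and TARS2, the threonyl enzyme, were listed at 0 in the Input. Their values in PABPC IPs were 0.105 for RARS2, 0.102 for VARS2 and 0.0890 for TARS2. In PABPN IPs they were 0.0993, 0.0261 and 0.0519. These genes were thus above 0 in both IPs and listed at 0 in the Input.

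Other mitochondrial members were highest in the Input. YARS2, the tyrosyl enzyme, was at a normalized EPKM of 0.0993 in the Input and at 0 in either IP. PARS2, the prolyl enzyme, was at 0.0515 in the Input, 0.0102 in PABPC IPs and 0 in PABPN IPs. Both were thus at 0 with PABPN. LARS2, the leucyl enzyme, was likewise highest in the Input, at 0.0291 in the Input, 0 in PABPC IPs and 0.0130 in PABPN IPs. NARS2, the asparaginyl enzyme, was nearly level between the Input and the PABPC IP, with 0.0816 in the Input, 0.0872 in PABPC IPs and 0.00873 in PABPN IPs.

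SARS2, the seryl enzyme, and CARS2, the cysteinyl enzyme, were at 0 in PABPC IPs, as were LARS2 and YARS2. SARS2 was at a normalized EPKM of 0.0561 in the Input and 0.0671 in PABPN IPs, and CARS2 at 0.00583 and 0.0727. WARS2, the tryptophanyl enzyme, was at 0.0137 in the Input, 0.0386 in PABPC IPs and 0.0477 in PABPN IPs. These 3 were the mitochondrial genes highest in PABPN IPs. EARS2, the glutamyl enzyme, which also charges the glutamine tRNA of mitochondria with glutamate, was at 0.0168, 0.0670 and 0.0595. FARS2, the phenylalanyl enzyme, was at 0.0292 in PABPC IPs and 0 in the others, the same single fraction as the cytosolic subunits FARSA and FARSB. In GENCODE 44 another gene on the same strand covered 48.2% of the exonic bases of SARS2 and 63.0% of those of VARS2, and what part of these was left out of the deposited values was not tested. The gene over SARS2 is a readthrough, a kind of transcript that the authors removed from their annotation.

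HARS2, the mitochondrial histidyl enzyme, was at a normalized EPKM of 0.0258 in the Input, 0.0634 in PABPC IPs and 0.0203 in PABPN IPs, above HARS1 in every fraction. HARS1 and HARS2 lie head to head and overlap at their starts, at chr5:140673035-140691537 on the minus strand and chr5:140691430-140699305 on the plus strand of hg38. Of the pairs compared, they have the longest run of identical coding sequence, shown in capitals with 15 bases on each side because it bears on how far reads separate the pair.
HARS1: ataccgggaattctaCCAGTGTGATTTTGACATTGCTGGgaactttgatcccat
HARS2: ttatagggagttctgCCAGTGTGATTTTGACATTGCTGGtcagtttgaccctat
The run is 24 bases, and the next longest between a cytosolic and a mitochondrial gene was 21 bases, in VARS1 and VARS2. None reached the read length of 100 bases.

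Cytosolic enzymes were paired with the mitochondrial enzyme for the same amino acid in 18 pairs, in which EPRS1 and FARS2 each enter 2 pairs and TARS3 enters none. The cytosolic gene had the higher normalized EPKM in 10 pairs in the Input and the mitochondrial gene in 6, with 2 pairs both at 0. In PABPC IPs the cytosolic gene was the higher in 11 pairs and the mitochondrial in 6, and in PABPN IPs in 11 and 5. With a limit of 2-fold the PABPC count was 7. TPM, available for 17 pairs, was more uneven, with the cytosolic gene higher in 16 pairs in the Input, 14 in PABPC IPs and 15 in PABPN IPs, and in 10, 8 and 8 with a limit of 2-fold. Among these pairs CARS1 and CARS2 had the reverse order of TPM in every fraction, with Input TPM of 7.87 and 8.44. The unpaired TARS3 was also below TARS2 in TPM, at 9.48 against 33.4 in the Input, 15.7 against 60.9 in PABPC IPs and 20.1 against 71.9 in PABPN IPs. The order of mRNA levels within pairs was therefore not always carried over into the order of edits. IARS1 and IARS2 showed this within a pair, since the TPM of IARS1 in PABPN IPs was 226 against 125 while its EPKM there was 0.0604 against 0.107.

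By the highest of the 3 fractions, 18 members had their highest normalized EPKM in PABPC IPs, beside 42.6% of background PCGs. In PABPN IPs were 12 members, beside 28.7%, and in the Input 7, beside 26.6%. As shares of the 37 members these are 48.6%, 32.4% and 18.9%. Cytosolic genes were divided evenly between the IPs, with 9 highest in each. Of the mitochondrial genes 9 were highest in PABPC IPs and 3 in PABPN IPs.

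The IPs were compared directly on log2 of EPKM with 0.01 added, and a gene was called higher in 1 IP when the difference was at least 2-fold. In PABPC IPs 13 of the 37 members were higher, 35.1% beside 36.3% of background PCGs. In PABPN IPs 7 were higher, 18.9% beside 21.1%. Neither share is far from the background, and with a pseudocount of 0.1 in place of 0.01 the counts were 3 and 0, so most of these calls depend on the pseudocount. The median difference, PABPC IP minus PABPN IP, was 0.52 for mitochondrial and -0.03 for cytosolic members, the latter turning to 0.03 without GARS1 and KARS1 and to 0.27 as a mean, and 0.32 for background PCGs.

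Of the 13 higher in PABPC IPs, 6 were cytosolic and 7 mitochondrial. FARSA, FARSB, FARS2 and PARS2 were among them with a PABPN IP value of 0. Where both IPs were above 0, the log2 differences were 2.55 for QARS1, 2.37 for WARS1, 2.37 for NARS2, 2.0 for IARS1, 1.63 for VARS2, 1.51 for VARS1, 1.43 for AARS2 and 1.28 for HARS2. QARS1 thus showed the largest difference among members above 0 in both IPs. Among the 7 higher in PABPN IPs were CARS1, CARS2, LARS2 and SARS2, all at 0 in PABPC IPs, and RARS1 and TARS3, both at -1.74. EPRS1, at -0.97, lay just short of the 2-fold limit. Of the amino acids with both a cytosolic and a mitochondrial gene, cysteine had both higher in PABPN IPs, and valine and phenylalanine had all of theirs higher in PABPC IPs. The cysteine calls rest on values of 0 in PABPC IPs and the phenylalanine calls on values of 0 in PABPN IPs. With a pseudocount of 0.1, 0 members were called higher in PABPN IPs. Single-gene calls were near the background shares, so no pattern by amino acid is drawn from these cases.

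**Figure D3:**
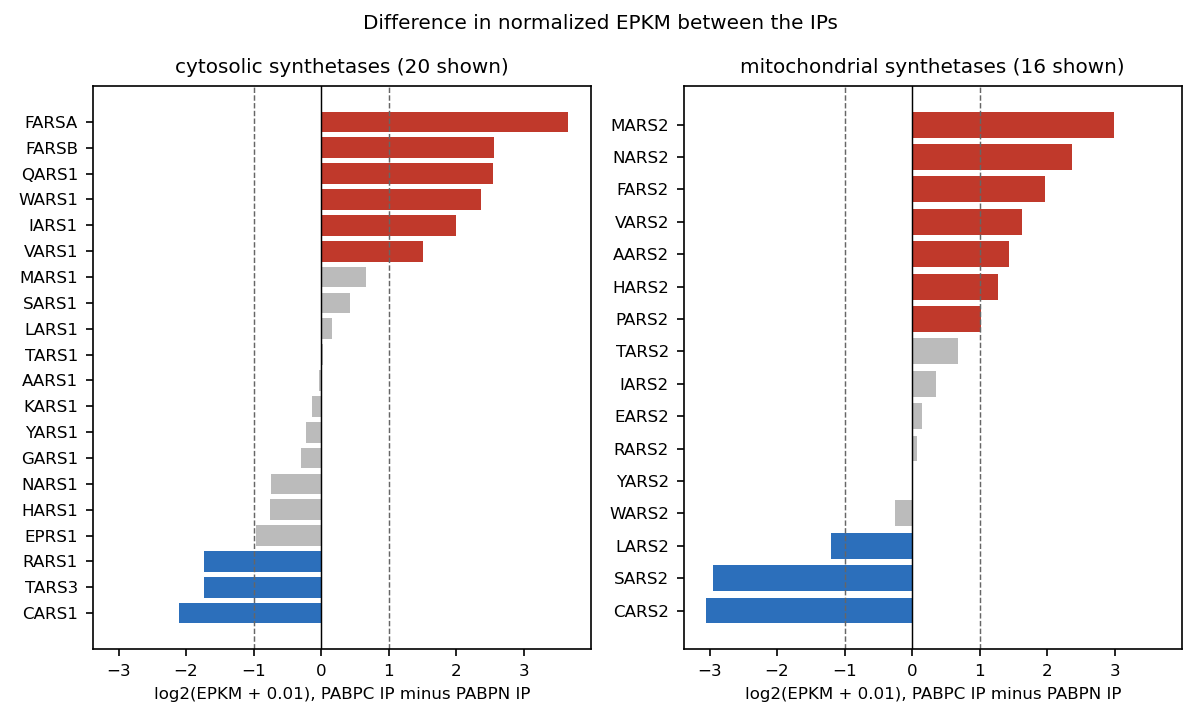
Difference in log2(EPKM + 0.01) between the PABPC IP and the PABPN IP (x axis) for the synthetase genes shown (y axis), in red where at least 2-fold higher in PABPC IPs and in blue where at least 2-fold higher in PABPN IPs, with dashed lines at 2-fold. Where a gene was at 0 in either IP the length of its bar depends on the 0.01 added, and MARS2, which has no TPM, is drawn but not counted among the 13 and 7 genes.

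Levels of the mRNAs themselves were higher for the cytosolic enzymes. Median TPM for cytosolic members was 55.9 in the Input, 67.1 in PABPC IPs and 88.3 in PABPN IPs. For mitochondrial members it was 20.1, 29.8 and 39.1, and for background PCGs 15.8, 28.9 and 38.4. Mitochondrial synthetase mRNAs were thus near the background level, and cytosolic ones above it. The Input TPM of cytosolic members ranged from 7.87 for CARS1 to 155 for FARSA, with 109 for IARS1 and 104 for GARS1 next to the top and 9.48 for TARS3 and 13.3 for LARS1 next to the bottom. Among mitochondrial members it ranged from 6.79 for FARS2 to 57.8 for IARS2, with YARS2 at 33.9 and TARS2 at 33.4 below the top.

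**Figure D4:**
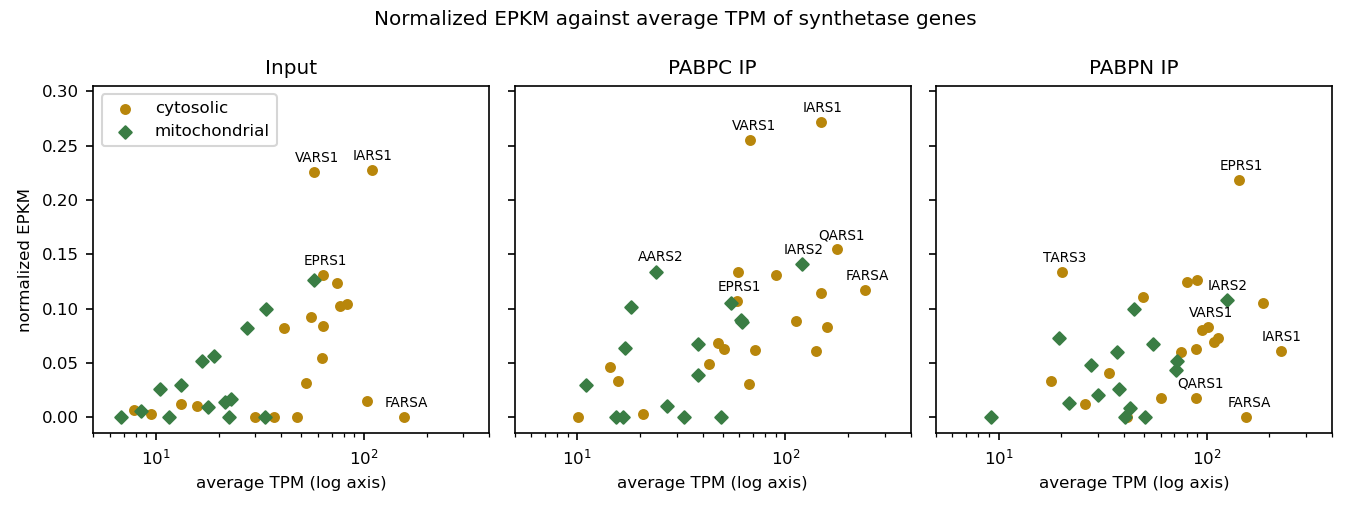
Normalized EPKM (y axis) against average TPM (x axis, log scale) of synthetase genes that pass the filter, in each fraction, with cytosolic genes as circles and mitochondrial genes as diamonds. VARS1 and IARS1 were highest in the Input and the PABPC IP, EPRS1 in PABPN IPs, and FARSA was at 0 in the Input with a TPM of 155.

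Normalized EPKM followed TPM in part. Across cytosolic genes (n = 21) Spearman's rho between them was 0.519 in the Input, 0.661 in PABPC IPs and 0.257 in PABPN IPs. Across mitochondrial genes (n = 16) it was 0.450, 0.444 and 0.373, and across background PCGs (n = 9607) 0.531, 0.452 and 0.245. Genes are not independent replicates, and both values of a gene come from libraries of the same fractions and are scaled by length. The weaker relation in PABPN IPs is shared by cytosolic members and background. Between the IPs, EPKM values of the 37 members had a rho of 0.274, beside 0.186 for background PCGs, so the order of genes in 1 IP said little of their order in the other. With the share of cytidines after A or T, EPKM of cytosolic members had a rho of 0.579 in PABPC IPs but 0.0189 in the Input and -0.280 in PABPN IPs, and background PCGs had -0.0151 in PABPC IPs. Mitochondrial members had -0.274 in PABPC IPs and all 37 members 0.0833, so no one direction held across the family.

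EPKM per 100 TPM sets the edits against the mRNA level. The medians for cytosolic members were 0.0943 in the Input, 0.0876 in PABPC IPs and 0.0705 in PABPN IPs. Mitochondrial members had 0.146, 0.143 and 0.0683, and background PCGs 0.161, 0.138 and 0.0704. On this scale the cytosolic median was below the mitochondrial one by -0.0514 in the Input and by -0.0557 in PABPC IPs, the reverse of the order in EPKM. In PABPN IPs the difference was 0.00223, and it turned to -0.00826 when summed EPKM was divided by summed TPM. Members, like background PCGs, had their lowest medians in PABPN IPs.

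The highest values on this scale were mostly those of genes with low TPM. TARS3 had 0.664 EPKM per 100 TPM in PABPN IPs, the highest value of any member, with CARS2 next at 0.373. In PABPC IPs VARS2 and AARS2 were highest, at 0.561 and 0.560, followed by VARS1 at 0.376, HARS2 at 0.372 and LARS1 at 0.322. In the Input VARS1 was at 0.391. VARS1 was thus high in the Input and the PABPC IP both in EPKM and per TPM, and IARS1, at 0.209 and 0.182 there, was also above the cytosolic medians on both scales.

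Recovery in each IP was described by the log2 ratio of average TPM, with the median of background PCGs subtracted. Those medians were 1.14 for PABPN IP over Input, 0.99 for PABPC IP over Input and -0.19 for PABPC IP over PABPN IP, and genes were called higher or lower beyond 0.5 in either direction. The ratios over Input share the Input values and are given side by side without being related to each other. Background PCGs were kept by their TPM in both IPs with no limit on the Input, where the lowest was 1.88 TPM. A PCG with a low Input TPM thus enters only when its IP values are higher, which can raise the background medians over Input. How far it does so was not tested. Median Input TPM was 15.8 for background PCGs and 55.9 for cytosolic members. Centring moves every gene by the same amount, and without it the cytosolic and mitochondrial medians over Input were all positive.

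Over Input, the PABPN IP had 2 members higher, 5.41% beside 24.5% of background PCGs, and 15 lower, 40.5% beside 21.6%. Without centring these counts were 26 and 0, but the background median itself, at 1.14, then lies above the limit of 0.5. Relative to the background, the median was -0.44 for cytosolic and -0.09 for mitochondrial members, and 0.70 and 1.05 without centring. AARS2 and VARS2 were the higher ones, at 0.86 and 0.57. FARSA at -1.14 and KARS1 at -1.02 were the lowest cytosolic genes, followed by QARS1 at -0.89, RARS1 at -0.81 and WARS1 at -0.80. FARSB, NARS1, SARS1, TARS1 and YARS1 made up the 10 lower cytosolic genes, and the 5 mitochondrial ones included WARS2 at -0.76, FARS2 at -0.69, YARS2 at -0.56 and NARS2 at -0.50. Relative to the median PCG, 10 of the 21 cytosolic genes were thus called lower in PABPN IPs and none higher, with LARS1 the highest of them at 0.22.

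For the PABPC IP over Input, 0 members were higher, beside 8.37% of background PCGs, and 13 were lower, 35.1% beside 18.1%. Without centring the counts were 24 and 0, but the background median, at 0.99, then also lies above the limit of 0.5. The medians were -0.48 for cytosolic and -0.28 for mitochondrial members, and 0.51 and 0.71 without centring. Of the cytosolic genes AARS1 at -1.14 and EPRS1 at -1.10 were lowest, followed by RARS1 at -0.91, LARS1 at -0.87 and VARS1 at -0.75. CARS1, HARS1, IARS1, NARS1 and TARS1 were the other lower cytosolic genes, and LARS2 at -0.77 and AARS2 at -0.56 were among the mitochondrial ones. The highest were RARS2 at 0.30 and QARS1 at 0.25. Relative to the median PCG, QARS1 was the only cytosolic member with a positive value here, and none of the 21 reached the limit for a higher call.

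Between the IPs, 8 members were higher in PABPC IPs, 21.6% beside 30.4% of background PCGs, and 8 were higher in PABPN IPs, 21.6% beside 31.5%. Without centring these counts were 5 and 13, around a background median of -0.19. Medians stayed close to the background, at -0.04 for cytosolic and 0.05 for mitochondrial members, and at -0.23 and -0.14 without centring. QARS1 at 1.19, KARS1 at 0.92, FARSA at 0.83, WARS1 at 0.78, NARS2 at 0.73 and WARS2 at 0.64 were furthest towards the PABPC IP, with SARS1 at 0.53 and YARS1 at 0.50. Towards the PABPN IP were AARS2 at -1.38, EPRS1 at -1.09, LARS1 at -1.05, AARS1 at -1.0, VARS2 at -0.87, CARS1 at -0.62, HARS2 at -0.62 and SARS2 at -0.57. The family therefore held members on both sides, among them complex partners with opposite values, QARS1 and KARS1 against EPRS1 and LARS1.

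Setting the mRNA ratio between the IPs beside the EPKM difference between them shows both orders, with both values of a gene taken from the same fractions. QARS1, FARSA, WARS1 and NARS2 were higher in PABPC IPs in TPM and in EPKM, as were 13% of background PCGs, and CARS1 and SARS2 were higher in PABPN IPs in both, as were 7.91%. AARS2, VARS2 and HARS2 went opposite ways, with more mRNA in PABPN IPs relative to the median PCG and at least 2-fold higher EPKM in PABPC IPs, as had 9.34% of background PCGs. The reverse combination was found in 0 members and 5.26% of background PCGs. As shares of 37 members the first 3 counts are 10.8%, 5.41% and 8.11%, each near or somewhat under the background.

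**Figure D5:**
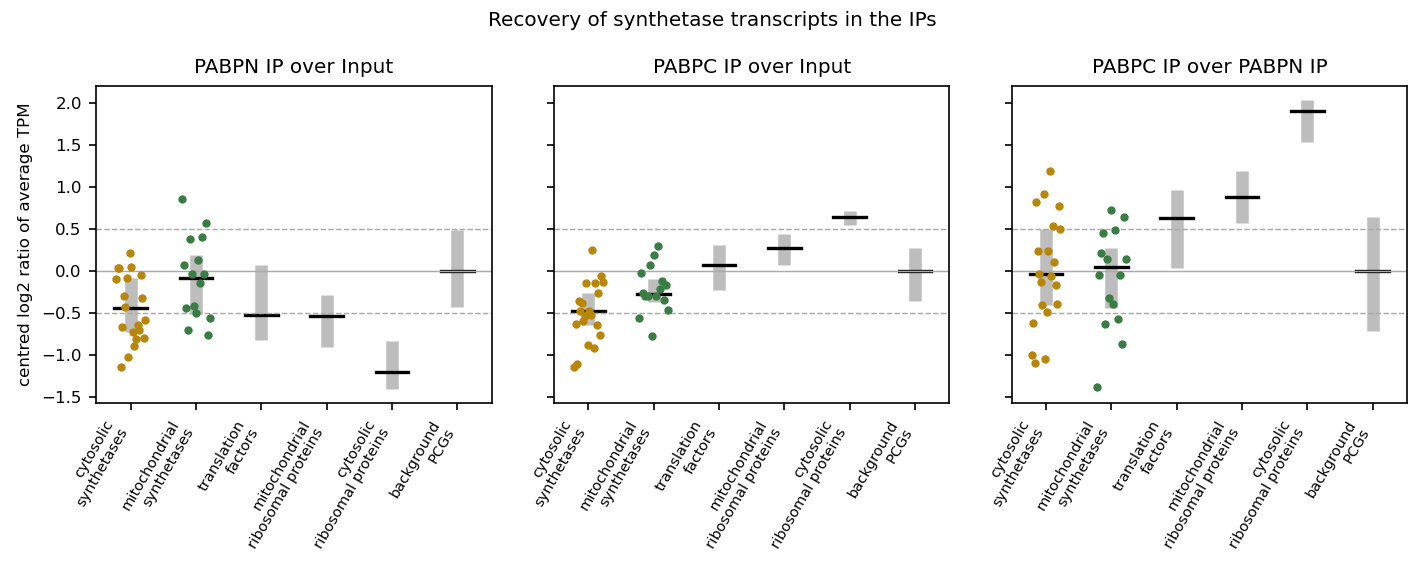
Log2 ratio of average TPM between fractions, centred on background PCGs (y axis), for synthetases and comparison sets (x axis), with 1 point per synthetase gene shown, black lines at medians, grey bars from the lower to the upper quartile and dashed lines at the limits for a call. Relative to background PCGs the cytosolic synthetase median was -0.48 for PABPC IP over Input and that of cytosolic ribosomal proteins 0.64, and without centring the synthetase median was 0.51.

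Other genes of protein synthesis were set beside the synthetases. In PABPC IPs over Input, 71 of 82 cytosolic ribosomal protein genes, 15 of 77 mitochondrial ribosomal protein genes and 5 of 63 translation factor genes were called higher, where no synthetase was. These shares are 86.6%, 19.5% and 7.94%, beside 8.37% of background PCGs, so the translation factors were at the background. Their medians were 0.64, 0.27 and 0.07, beside -0.34 for the 37 synthetases. Called lower were 0, 2 and 7 of these genes, beside 13 synthetases and 18.1% of background PCGs. In PABPN IPs over Input 76, 41 and 33 of them were called lower, 92.7%, 53.2% and 52.4% beside 40.5% of synthetases and 21.6% of background PCGs. Relative to this background, which was kept by its TPM in the IPs, synthetases thus lay on the low side of Input in PABPN IPs. The other sets did so too, and synthetases differed from the ribosomal proteins in PABPC IPs.

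Partners of the synthetases in the tRNA pathway were followed from lists of genes by role. The elongation factor subunits that bring charged tRNA to the cytosolic ribosome, 5 genes, had 4 lower in PABPN IPs over Input, beside 21.6% of background PCGs, and 2 higher in PABPC IPs over Input, beside 8.37%. The latter were EEF1B2 at 0.60 and EEF1G at 0.52. EPKM of EEF1A1, which carries the tRNA, was 0.294 in the Input, 0.464 in PABPC IPs and 0.534 in PABPN IPs from a TPM of 2454, 6769.8 and 2239. Its EPKM exceeded that of every synthetase in each fraction, but per 100 TPM it was 0.0120, 0.00686 and 0.0239, below the synthetase medians.

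Of the 20 genes for tRNA maturation and export, 7 were at least 2-fold higher in EPKM in PABPC IPs and 6 in PABPN IPs, 35% and 30% beside 36.3% and 21.1% of background PCGs. In TPM over Input, 4 were higher and 5 lower in PABPC IPs, 20% and 25% beside 8.37% and 18.1%. XPOT, the exporter of tRNA, had 0.240, 0.2496 and 0.1396 EPKM in the Input, PABPC IP and PABPN IP. Of the 20 partners of mitochondrial aminoacylation and translation, 12 were called higher in EPKM in PABPC IPs and 2 in PABPN IPs. These are 60% and 10% beside the same background shares and 7 and 3 of the 16 mitochondrial synthetases. Many of these calls depend on the 0.01 added, since 9 of the 20 were at 0 in PABPN IPs. Among those called higher in PABPC IPs, these were GATC, GTPBP3, HSD17B10, MTFMT, MTIF2, MTRF1L and PRORP. Both genes called higher in PABPN IPs, MTIF3 and TSFM, were at 0 in PABPC IPs. GATB, a subunit of the amidotransferase that finishes the glutamine tRNA begun by EARS2, was at 0 in all 3 fractions. Its partner subunits QRSL1 and GATC were at 0.0659 and 0.180 in PABPC IPs.

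Proofreading in trans and selenocysteine synthesis were represented by 4 of 5 listed genes, with AARSD1 not in the table, and 2 passed the filter. DTD2, which removes mischarged amino acids from tRNA, was at an EPKM of 0.258 in the Input, 0.212 in PABPC IPs and 0.0594 in PABPN IPs. DTD1, which does so for D-amino acids, was at 0.00142 in the Input and 0 in either IP. SEPSECS and PSTK, which turn the serine placed by SARS1 into selenocysteine, averaged 4.02 and 4.45 TPM in PABPC IPs, under the filter, and were not counted. The partners thus covered a range as wide as the synthetases themselves.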

How the data were processed

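The authors used STAR and hg38 for alignment and computed EPKM from C-to-U edits, and the deposited signal is the EPKM of RPS2-STAMP after they subtracted the control's editing, with replicates pooled. The deposited average TPM values are the authors' own, counted with featureCounts 2.0.2 on an annotation without regions shared by overlapping genes, with exonic and intronic TPM added. Coverage per gene, edit counts and errors are not given in the table, so no interval was computed and no test across samples was made. Genes were read with pandas 2.3.3 and NumPy 2.4.6 in Python 3.11.15, correlations used SciPy 1.17.1, figures matplotlib 3.10.9, and gene structure and sequence GENCODE 44 on hg38. Genes that averaged 5 TPM or more in each IP were kept. EPKM differences used a pseudocount of 0.01 and a limit of 2-fold, and log2 TPM ratios were centred on background PCGs with a limit of 0.5.

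Members and lists (the synthetases, complex scaffolds, tRNA delivery, proofreading and selenocysteine, tRNA maturation and export, mitochondrial partners, cell markers) were chosen with earlier results of these data known. The catalytic classes, the highest of the 3 fractions, joint calls in TPM and EPKM, the ribosomal protein and translation factor sets, taken by symbol, and the structural quantities were added after the values had been seen. Any member or listed gene could be named, with values in full for the 5 highest and 5 lowest of each group in each quantity. EPKM was also given for the remaining members, except for 2 that enter counts and medians but are not reported singly here. Alternatives changed the filter, pseudocount, limit, centring, summary and membership 1 at a time, and a value was taken as moved when it changed by more than 1.5-fold. The calls were tested on simulated data, from which no error rate is given here. Pseudogenes, and most non-coding genes, were left out.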

Additional observations from a re-analysis of the deposited data

How the results depend on the processing

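No paired analysis was possible because each fraction has a single pooled value per gene. Leaving out each replicate and using the replicate as a block were not run, since no values per sample are given. Over 40 results, 106 alternative values were computed, of which 68 stayed within 1.5-fold on the same side of 0, 27 moved further and 11 reversed. Where nothing else is said, the cause was not tested.

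Without centring, the median log2 TPM ratio of PABPN IP over Input was 0.70 for cytosolic and 1.05 for mitochondrial members, that of PABPC IP over Input 0.51 and 0.71, and that of PABPC IP over PABPN IP -0.23 and -0.14. Members above and below the limit then numbered 26 and 0, 24 and 0, and 5 and 13. These shifts follow by construction from the background medians subtracted, 1.14, 0.99 and -0.19. At a limit of 1, members above and below were 0 and 2 for PABPN IP over Input and 1 and 3 for PABPC IP over PABPN IP, and 2 were below for PABPC IP over Input, also by construction.

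With a pseudocount of 0.1, 3 members were 2-fold or more higher in PABPC IPs and 0 in PABPN IPs, and the median log2 EPKM differences were -0.0124 for cytosolic and 0.18 for mitochondrial members, by construction, as most EPKM values lie under the larger pseudocount. Means in place of medians gave 0.27 for the cytosolic EPKM difference between the IPs, 0.00464 and -0.0787 for the cytosolic and mitochondrial TPM ratio of PABPC IP over PABPN IP, 0.0318 for cytosolic minus mitochondrial EPKM in PABPC IPs, and 0.0298 and 0.0291 for complex minus free enzymes in PABPC IPs and PABPN IP.

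Within the TPM range that both groups share, cytosolic minus mitochondrial EPKM was -0.0144 in the Input and 0.00384 in PABPC IPs. The PABPC IP difference was 0.00469 over every listed member and 0.00442 without GARS1 and KARS1. Without those genes the cytosolic log2 EPKM difference was 0.0294 and the EPKM per 100 TPM difference in PABPC IPs -0.0294. As a ratio of sums, EPKM per 100 TPM in PABPN IPs differed by -0.00826. Counting pairs only when the cytosolic gene was at least 2-fold higher left 7 for EPKM in PABPC IPs, and 10, 8 and 8 for TPM in the Input, PABPC IP and PABPN IP, by construction.

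Coverage per gene is unknown, so values of 0 and small EPKM values cannot be graded by precision. Which samples entered the TPM averages is not stated, and the PABPC control had 2 samples where the other groups had 3. Intronic reads are part of the TPM. EPKM and TPM of overlapping genes depend on an annotation that differs from the GENCODE release used here. With 8 to 21 genes in a group, few genes can move a median, as leaving out GARS1 and KARS1 together did.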

Other observations

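Among non-coding genes named after members were GARS1-DT and WARS2-AS1, both long non-coding RNAs and both listed at a normalized EPKM of 0 in the Input. WARS2-AS1 was at 0.0177 in PABPC IPs and 0.0557 in PABPN IPs, with an average TPM of 8.70 in the Input, 19.9 in PABPC IPs and 27.3 in PABPN IPs. GARS1-DT was at an EPKM of 0.00315 in PABPC IPs and 0.00710 in PABPN IPs, with TPM of 1.11, 1.26 and 5.37.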
